A study of Danio rerio with 11 samples.

Results

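The experiment described here is the exposure of zebrafish to a shoreline oil emulsion from Gulfport during the last of 3 windows, between 48 and 96 h post fertilization (hpf), when most organs have formed and begin to work. It comprises 3 of the series' 11 arrays: the single Gulfport array at 96 hpf and the 2 control arrays of the same age, chosen by their titles. The Gulfport array carried total RNA from whole animals, pooled from all 30 in a cup that held 100 ml of medium and 250 mg of emulsion on its bottom, for a continuous 48 h that ended at collection. The controls were kept in medium with no emulsion and collected at 96 hpf. The emulsion was a mixture of alkanes, polynuclear aromatic hydrocarbons, sand and seawater. No strain, genotype or transgene is given in the sources used here for any of these groups. The exposed side is therefore 1 cup and 1 array, and the labels do not say if each control array had its own cup or clutch. All p-values below measure the spread between control arrays, which may be partly technical. For comparison, the same emulsion and dose were used from 24 to 72 hpf (1 array, with 3 controls at 72 hpf) and from 0 to 48 hpf (1 array, with 1 control at 48 hpf).

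Aromatic hydrocarbons bind the aryl hydrocarbon receptor (AHR), a transcription factor that pairs with ARNT in the nucleus and raises the transcription of cytochrome P450 genes of family 1, together with other genes of foreign compound metabolism. P450 enzymes add oxygen to the compound (phase I), and transferases then couple it to glutathione, sulfate or glucuronic acid (phase II) for export. A neighbouring system, governed by the transcription factor Nrf2, raises genes that make and recycle glutathione when reactive products appear. In the zebrafish larva these enzymes are found largely in liver, gut and vessels, organs that mature during the window studied here.

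The arrays were alike in their overall values. Over the 11 arrays, medians lay between 6.37 and 6.42 on the log2 scale and lower quartiles between 4.75 and 4.84. Signals of 6 or more in any array were reached by 9803 probe sets, and these were tested. Markers of liver and exocrine pancreas were bright in all 3 arrays. Liver fabp10a, a fatty acid binding protein, read 11.68 in the Gulfport array, against 11.54 and 11.45 in the controls. Pancreatic prss1, a trypsin, read 12.87 in the Gulfport array, against 12.93 and 13.29 in the controls. Hatching is not recorded in the labels, and it was not checked here.

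The 2 controls differed from each other, which set the resolution of the experiment. A difference was read only where the Gulfport array lay farther from the mean of the controls than the controls lay from each other, a distance called the control gap below. The median control gap was 0.13 on the log2 scale, and the median absolute difference of the Gulfport array from the control mean was 0.11. The controls were at least 1 apart in 75 probe sets, and control 2 was the higher in 63 of these. Immediate early and stress transcription genes, which cells switch on within minutes of many stimuli, stood out among them. Control 2 exceeded control 1 in 41 of the 44 tested genes of that list, by at least 1 in 18, and control 1 exceeded control 2 by at least 1 in 0. The Gulfport array lay between the controls for 28 of the 44, below both for 13 and above both for 3. Over all tested probe sets, it lay outside the range of the controls in 6556 of 9803. Control 2 was at least 1 above control 1 in 63 of those 9803. The median of control 1 minus control 2 was -0.67 over the list, against 0.01 over all genes.

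The AP-1 subunit gene fosab read 8.46 in the Gulfport array, against 7.79 in control 1 and 11.22 in control 2. The neuronal activity gene npas4a read 7.54 in the Gulfport array, against 6.84 in control 1 and 10.08 in control 2. For both genes control 2 was far above the other arrays, and the exposed array lay nearer to control 1. The control gap therefore removed nearly all of the genes of this list from what follows. Over it lay 2 of the 44 upward (4.55%, against 19.3% over all genes) and 2 downward (4.55%, against 27.5%). Set against single controls, the Gulfport array was at least 1 higher in 41 probe sets and at least 1 lower in 7 relative to control 1. Relative to control 2 it was at least 1 higher in 40 and at least 1 lower in 70. The number of large upward differences thus hardly depended on the control used, while the number of large downward differences did.

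**Figure D1:**
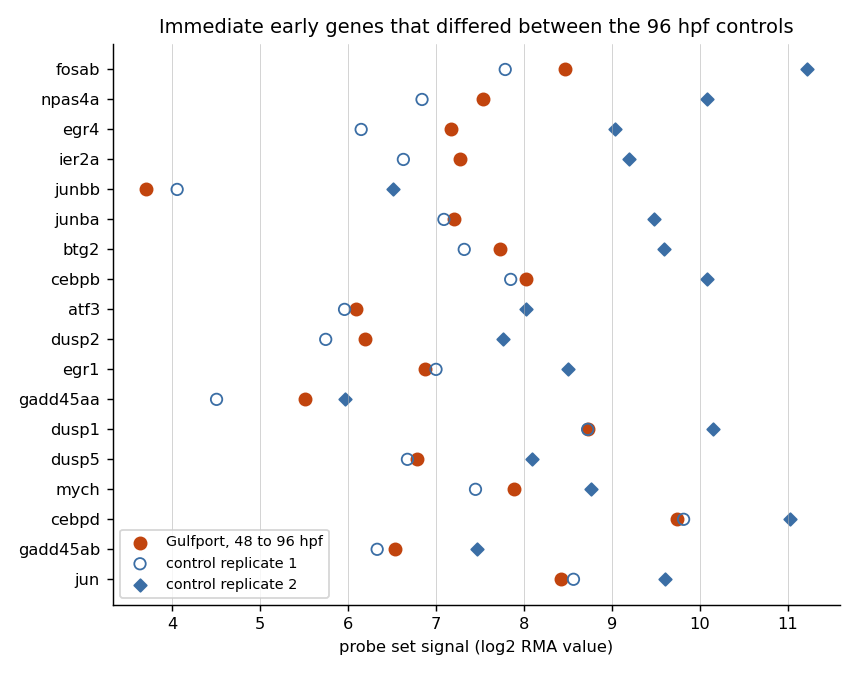
Log2 signal (x axis) in the Gulfport 96 hpf array and in the 2 control arrays of that age for the 18 immediate early and stress genes in which control 2 exceeded control 1 by most, 1 row of points per gene. Control 2 is at least 1 above control 1 in all 18, and fosab reads 8.46 in the Gulfport array, against 7.79 and 11.22 in the controls.

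A small set of genes, most of them of foreign compound metabolism, was higher in the Gulfport array, and none was lower past the test. A probe set was called where limma's adjusted p, from a fit of 1 mean per group over the 11 arrays, was under 0.05 and the difference was larger than the control gap. That held for 9 of 9803 probe sets (0.0918%), all 9 higher in the Gulfport array and 0 lower. They represent 6 named genes, 1 of them with 2 probe sets, and 2 probe sets without a gene symbol. At an unadjusted p under 0.05 limma gave 454 probe sets, 254 of them higher and 200 lower. That is no more than this threshold lets through by chance. Without any p, 4492 probe sets (45.8%) lay over the control gap, 1941 higher (19.8%) and 2551 lower (26%). With 1 array against 2, noise alone also passes the gap often. The median absolute difference, 0.11, was no larger than the median gap, 0.13. Lying over the gap is therefore a description and no evidence of an exposure effect by itself. Differences that were over the gap and at least 1 on the log2 scale were seen in 39 (0.398%), of which 34 were higher (0.347%) and 5 lower (0.051%). The large differences past the gap were thus mostly upward, although those of any size were more often downward. Among differences of at least 1, si:dkey-247k7.2 was just over the gap, with 1.31 and a gap of 1.04. Just within it, cisha differed by -1.22 with a gap of 1.41 and tcnbb by 1.1 with a gap of 1.27. The gap removed 11 probe sets that differed by at least 1, and all of them except tcnbb were lower in the Gulfport array. Of the 34 higher probe sets, 7 stayed under the filter of 6 in all 6 control arrays and so were tested only because exposed arrays were high. They included the dimmer called probe set of cyp1c1 and a called probe set without a gene symbol.

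The count rested on few arrays. Without control 1 at 96 hpf limma called 14 probe sets, 6 higher and 8 lower, where no gap could be set, and 0 of those 8 lay over the gap of both controls. It called 6 without control 2, 8 without replicate 1 of the 72 hpf controls and 5 without either of the others. The 3 genes with the largest differences, cyp1a, cyp1c1 and cyp2k18, passed in each of these fits. Here cyp1c1 was followed by its dimmer probe set, whose limits are given below.

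**Figure D2:**
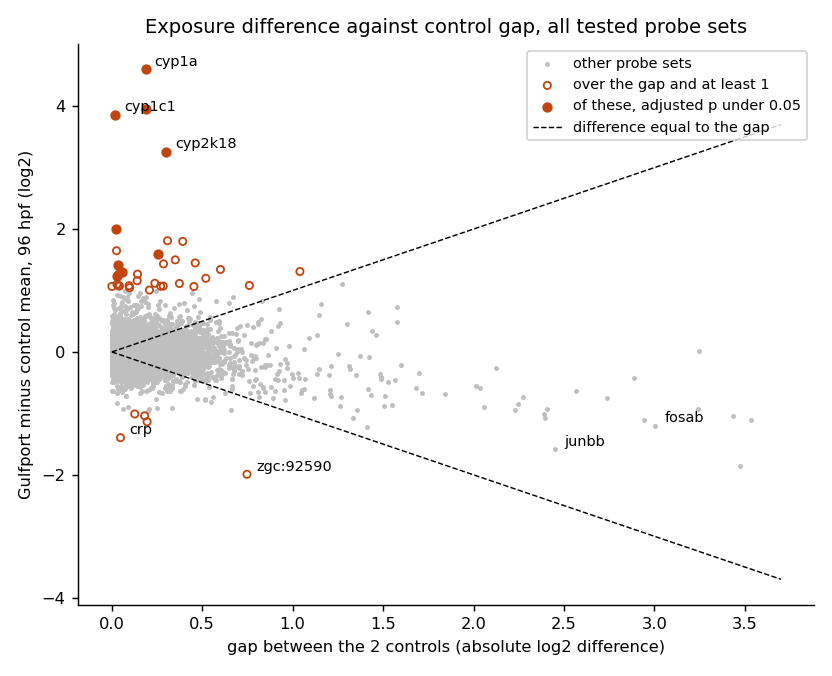
Log2 difference of the Gulfport 96 hpf array from the mean of the 2 controls (y axis) against the control gap (x axis), 1 point per tested probe set. The 9 called probe sets lie high above the line at which a difference equals the gap, and no called point lies on the lower side.

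The AHR target genes of cytochrome P450 family 1 held the largest differences. The monooxygenase gene cyp1a, the standard readout of AHR activation in fish, read 13.26 in the Gulfport array, against 8.76 and 8.57 in the controls. The exposed value was far outside the narrow control pair. The difference was 4.60 on the log2 scale (SE 0.17, 24.2-fold), with a limma adjusted p of 5.064e-05. cyp1c1, a second P450 of the same family, was measured by 2 probe sets. The brighter one read 10.38 in the Gulfport array, against 6.53 and 6.52 in the controls, a difference of 3.85 (SE 0.20, 14.5-fold, limma adjusted p = 0.0002379). The dimmer one read 8.41 in the Gulfport array, against 4.55 and 4.37 in the controls, and was called too (limma adjusted p = 0.00198). Its control values lay under the lower quartiles of the arrays, so no fold is given for it. The closely related cyp1c2 may share part of such signals, since short probes can bind near-identical transcripts.

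The other 7 tested genes of the AHR list did not pass. Of the 9 in all, cyp1a and cyp1c1 included, 2 passed the test, 7 lay over the control gap upward and 1 downward, and the median difference was 0.71, against -0.03 over the 6466 genes tested. Over all genes the background was 6 called (0.0928%), 1250 over the gap upward (19.3%) and 1776 downward (27.5%). The receptor gene ahr2, the main AHR of zebrafish, differed by 0.71 (limma adjusted p = 0.214). nqo1, a quinone reductase, differed by 0.62, and tiparp, a repressor of the receptor, by 0.47; neither passed. The transglutaminase gene tgm2b differed by -0.29, and arnt2, which encodes a partner of the receptor, stayed within the gap. The list also held sult6b1 and gstp1.2, described with the conjugating enzymes. Among its members the differences of at least 1 were those of these genes and of both family 1 P450 genes.

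P450 genes of other families formed the next group. cyp2k18, a member of a fish subfamily of family 2, read 9.26 in the Gulfport array, against 5.85 and 6.15 in the controls. It differed by 3.26 (SE 0.17, 9.56-fold, limma adjusted p = 0.0002379), although other cyp2k genes of similar sequence may contribute to the signal. cyp2k6 of the same subfamily stayed within the gap. cyp3a65, a family 3 gene of gut and liver, read 10.43 in the Gulfport array, against 8.46 and 8.77 in the controls. That difference of 1.81 (SE 0.27, 3.51-fold) lay well over the gap but missed the threshold (limma adjusted p = 0.0773). A second cyp3a65 probe set gave 1.80 and was not called either. cyp2y3, another family 2 gene, differed by 1.08 (limma adjusted p = 0.0817) at the brighter of its 2 probe sets and by 1.07 at the other. The dimmer cyp2y3 probe set was tested only because exposed arrays reached the filter of 6. The epoxide hydrolase gene ephx1 read 6.44 in the Gulfport array, against 5.42 and 5.52 in the controls, and missed the threshold too (limma adjusted p = 0.14). In all, 22 genes of phase I enzymes and their helpers outside the AHR list were tested, and 2 passed (cyp2k18 and cyb5a). Of the 22, 11 lay over the gap upward (50%, against 19.3% over all genes) and 3 downward (13.6%, against 27.5%). The median difference was 0.04. The middle of the list lay near 0, and the large values belonged to a few members.

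Of the genes whose products serve P450 enzymes, cyb5a and alas1 passed the test. cyb5a encodes cytochrome b5, which hands electrons to P450 enzymes. It read 10.63 in the Gulfport array, against 9.16 and 8.91 in the controls, and rose by 1.59 (SE 0.20, 3.01-fold, limma adjusted p = 0.0451). alas1 encodes the first enzyme of haem synthesis, the source of the P450 cofactor outside red cells. It read 11.67 in the Gulfport array, against 10.33 and 10.38 in the controls, and rose by 1.31 (SE 0.15, 2.48-fold, limma adjusted p = 0.0245). The controls were almost identical for alas1, so its gap was 0.05. Leaving out any 1 of the 5 control arrays at 96 or 72 hpf ended both calls, with limma adjusted p up to 0.214 for cyb5a and 0.154 for alas1, in each case without control 2 at 96 hpf. pora, the gene of the P450 reductase that also passes electrons to these enzymes, stayed within the gap. The carboxylesterase gene ces2b, which encodes a hydrolase of esters and drugs, read 10.93 in the Gulfport array, against 9.73 and 9.59 in the controls. Its difference of 1.27 (SE 0.16) fell just short of the threshold (limma adjusted p = 0.0505).

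Among conjugating enzymes, gstt1b passed the test. It encodes a theta class glutathione transferase and read 9.48 in the Gulfport array, against 8.23 and 8.26 in the controls. The gain was 1.24 (SE 0.13, 2.36-fold, limma adjusted p = 0.019), and its close relative gstt1a stayed within the gap. The call was lost without control 1 or 2 at 96 hpf or replicate 2 or 3 at 72 hpf, with limma adjusted p between 0.0539 and 0.138. Several further genes of this role were over the gap by a wide margin without passing. The sulfotransferase gene sult6b1 read 11.40 in the Gulfport array, against 10.11 and 9.83 in the controls, a difference of 1.43 (limma adjusted p = 0.0583). gstp1.2, a pi class glutathione transferase gene, read 12.61 in the Gulfport array, against 11.55 and 11.52 in the controls, a difference of 1.08 (limma adjusted p = 0.0583). ugdh, which encodes the enzyme that makes the donor for glucuronidation, read 7.54 in the Gulfport array, against 6.44 and 6.54 in the controls (1.05, limma adjusted p = 0.0505). Its other probe set gave 1.12. All these genes had exposed values above both controls.

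The omega class transferase gene gsto2 differed by 1.07 (limma adjusted p = 0.127). Its relative gsto1 read 6.04 in the Gulfport array, against 4.58 and 5.1 in the controls, and of these arrays only the exposed one reached the filter of 6 (limma adjusted p = 0.14). The transporter gene abcb5 differed by 0.84 and the sulfotransferase gene sult1st4 by -0.45, so members of the group did not all lie on 1 side. Of 21 conjugating enzyme and ABC transporter genes tested, 1 passed, 11 lay over the gap upward (52.4%) and 5 downward (23.8%), with a median of 0.15. Over all genes these shares were 19.3% upward and 27.5% downward.

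**Figure D3:**
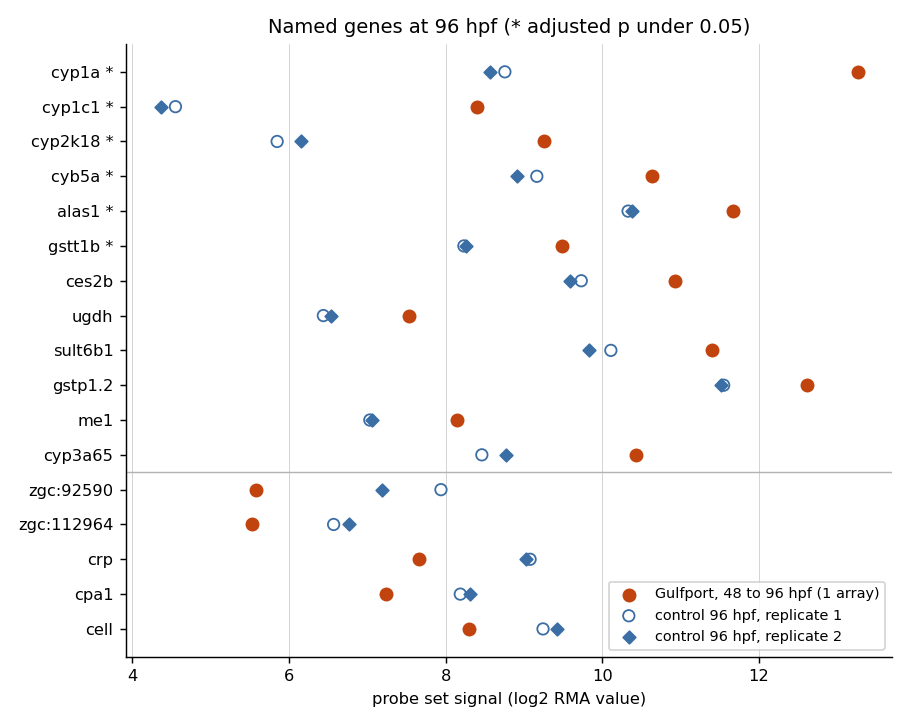
Log2 signal of the 17 named genes in the Gulfport 96 hpf array and in the 2 control arrays of that age. The 12 genes that are higher have their exposed point to the right of both control points, by up to 4.60 for cyp1a, and the 5 lower genes have it to the left.

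Nrf2 and glutathione genes leaned upward as a group, but none of the 27 tested passed. Of these, 20 lay over the control gap upward (74.1%, against 19.3% over all genes) and 2 downward (7.41%, against 27.5%). The median difference was 0.30. The peroxide reductase gene prdx1 was measured by 3 probe sets, which differed by 1.06 to 1.11. The brightest of them read 9.80 in the Gulfport array, against 8.70 and 8.75 in the controls (limma adjusted p = 0.217). gsr, which encodes the reductase that restores glutathione, read 8.82 in the Gulfport array, against 7.96 and 7.90 in the controls, a difference of 0.89 (limma adjusted p = 0.0861). The gene for Nrf2 itself, nfe2l2a, read 9.30 in the Gulfport array, against 8.47 and 8.60 in the controls (0.77, limma adjusted p = 0.14). These 3 genes were each above both controls. me1, the cytosolic malic enzyme gene, which supplies NADPH, read 8.15 in the Gulfport array, against 7.03 and 7.06 in the controls (1.1, SE 0.16, limma adjusted p = 0.0723). A second me1 probe set gave 0.54. The pentose phosphate gene pgd differed by 0.73, the glutathione peroxidase gene gpx1a by 0.64, the sensor gene keap1a by 0.53 and the glutathione synthesis gene gclm by 0.51.

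No gene fell past the test, and 5 differed downward by at least 1 and by more than the gap. The largest value was that of zgc:92590, a gene with no assigned name, which read 5.58 in the Gulfport array, against 7.94 and 7.19 in the controls. The control gap was wide here, at 0.75, and the difference was -1.99 (SE 0.30, limma adjusted p = 0.0773). crp, an acute phase pentraxin gene in the platform annotation, read 7.66 in the Gulfport array, against 9.08 and 9.03 in the controls (-1.40, SE 0.29, limma adjusted p = 0.217). zgc:112964, also without an assigned name, differed by -1.14 (limma adjusted p = 0.14). The remaining pair read lower by about 1 as well. The pancreatic carboxypeptidase gene cpa1 read 7.24 in the Gulfport array, against 8.19 and 8.32 in the controls (limma adjusted p = 0.38). The gene listed as cell read 8.29 in the Gulfport array, against 9.24 and 9.42 in the controls (limma adjusted p = 0.47). Calls appeared under some alternatives. zgc:92590 passed without control 2 at 96 hpf (limma adjusted p = 0.0299), with the exposed 72 hpf arrays as 1 group (limma adjusted p = 0.0462) and with the arrays split by their lower quartile as a block (limma adjusted p = 0.0196). zgc:112964 passed with that block (limma adjusted p = 0.0471), and crp without replicate 1 of the 72 hpf controls (limma adjusted p = 0.0458). In bulk RNA of whole animals, fewer cells of a type and less RNA per cell cannot be told apart.

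Genes of exocrine pancreas, which makes digestive enzymes, lay on the low side without any passing. Of 20 tested, 12 lay over the gap downward (60%, against 27.5% over all genes) and 0 upward (against 19.3%), with a median of -0.33. That median was -0.21 against control 1 and -0.49 against control 2. The protease gene ctrb.2 read 10.51 in the Gulfport array, against 11.36 and 11.33 in the controls (limma adjusted p = 0.23). The phospholipase gene pla2g1b differed by -0.66, the carboxypeptidase gene cpa4 by -0.64 and the elastase gene ela2 by -0.62. Of the 4 defining markers, cela1.6 differed by -0.23 and cpa5 by -0.20, both over their gaps. The other two stayed within theirs, prss1 at -0.24 with a gap of 0.36 and ctrb.1 at 0.03 with a gap of 0.46. Of 21 mucosal and innate immune genes, 10 lay over the gap downward (47.6%, against 27.5% over all genes) and 0 upward (against 19.3%). Their median was -0.46, but it was -0.13 against control 1 and -0.45 against control 2, so much of that shift depended on the control used. The gel-forming mucin gene muc5.1 read 6.83 in the Gulfport array, against 7.77 and 7.68 in the controls (limma adjusted p = 0.14). For muc5.1 the exposed value was below both controls, which were close together.

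Muscle and skeletal genes are set here against the shares over all genes, 27.5% downward and 19.3% upward. Among 38 skeletal muscle genes, 18 lay over the gap downward (47.4%) and 2 upward (5.26%), with a median of -0.17. mybpc2b, which encodes a myosin binding protein of fast fibres, read 6.82 in the Gulfport array, against 7.78 and 7.71 in the controls (limma adjusted p = 0.11). The abundant myosin light chain gene mylpfa read 13.94 in the Gulfport array, against 13.96 and 13.91 in the controls, and stayed within the gap. Among 15 heart genes, 7 lay over the gap downward (46.7%) and 4 upward (26.7%), with a median of -0.10. The cardiac light chain genes cmlc1 and myl7 differed by -0.58 and -0.50, and the calcium pump gene atp2a2a by -0.51. In cartilage and bone, 15 of 27 lay over the gap downward (55.6%) and 6 upward (22.2%), with a median of -0.16. The cartilage regulator gene sox9b and the collagen gene col9a3 differed by -0.57 and -0.55, while dlx3b, a homeobox gene, differed by 0.69. None of the genes of these lists passed the test.

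The shares over all genes, 27.5% downward and 19.3% upward, also stand beside the lists that follow. In the eye, rod and cone genes were slightly low: 14 of 28 lay over the gap downward (50%) and 1 upward (3.57%), with a median of -0.14. The rod transducin gene gnat1 read 9.01 in the Gulfport array, against 9.58 and 9.65 in the controls (limma adjusted p = 0.54). Cell cycle and DNA replication genes had 37 of 74 over the gap downward (50%) and 4 upward (5.41%), with a median of -0.13. Red cell genes lay over the gap upward in 6 of 17 (35.3%) and downward in 3 (17.6%). The globin gene hbae3 read 13.01 in the Gulfport array, against 12.49 and 12.44 in the controls (limma adjusted p = 0.38). Another globin gene, hbbe2, differed by -0.01 and stayed within its gap of 0.21. Gut genes lay over the gap upward in 6 of 23 (26.1%) and downward in 3 (13%). Liver secretory genes lay over it upward in 5 of 30 (16.7%) and downward in 11 (36.7%). Sterol and fatty acid synthesis genes had 7 of 30 upward (23.3%) and 12 downward (40%). Among them hmgcs1, an enzyme gene of the mevalonate pathway, differed by -0.97 (limma adjusted p = 0.54). Proteasome subunit genes had 10 of 42 upward (23.8%) and 8 downward (19%), with a median of 0.01. Neuronal genes had 15 of 47 upward (31.9%) and 11 downward (23.4%), with a median of 0.03. None of these genes passed the test.

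**Figure D4:**
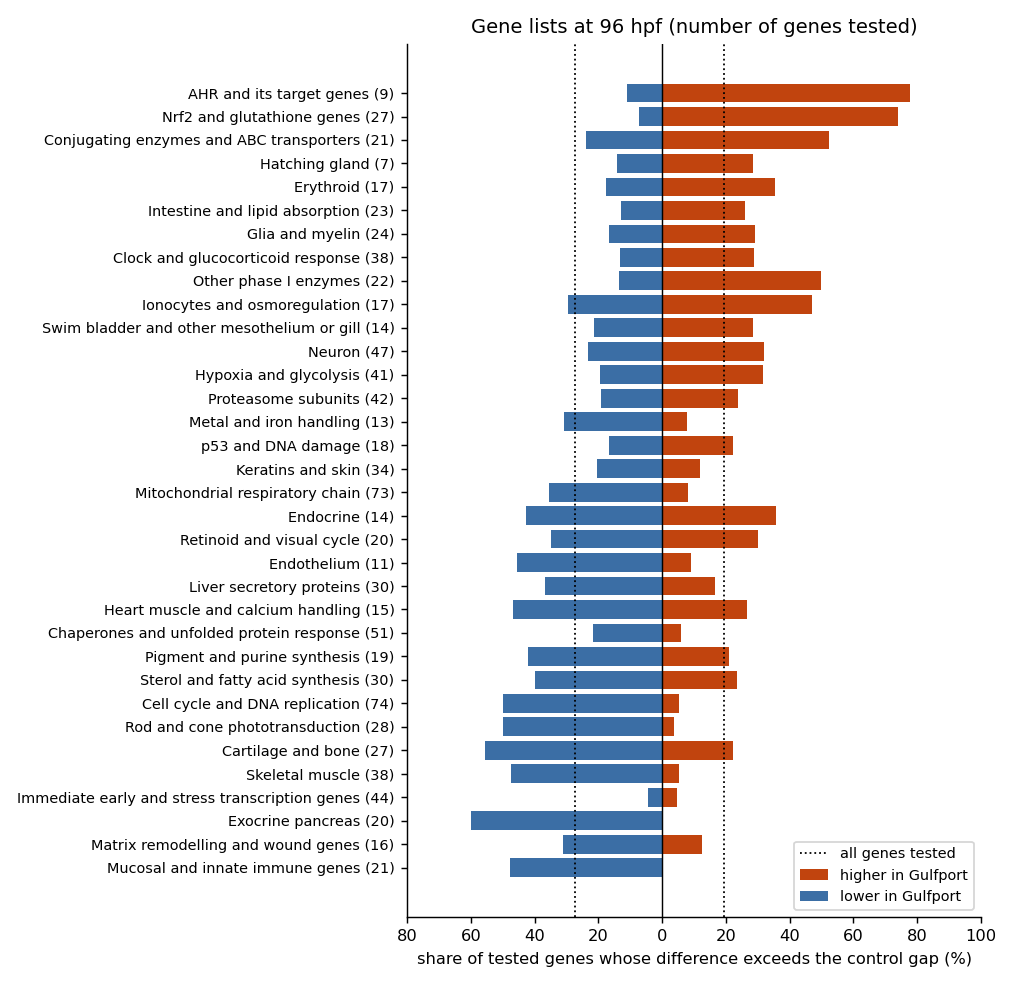
Share of the tested genes of each list (lists with at least 5 tested genes) whose difference at 96 hpf was over the control gap, higher or lower in the Gulfport array. Dotted lines mark the shares over all 6466 genes, 19.3% higher and 27.5% lower; the Nrf2 list had 20 of 27 higher, and the pancreas list 12 of 20 lower and 0 higher.

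The late response was then set beside the responses to the same emulsion in the earlier windows, which have controls of their own. The 34 probe sets that were higher by at least 1 at 96 hpf were all above 0 at 72 hpf as well, where 45.7% of all probe sets were above 0. At 72 hpf 26 of them were higher by at least 1 (background 1.43%), and 25 passed limma's test there (background 1.74%). At 48 hpf, with 1 array on each side and no test, 31 were above 0 (background 52.3%) and 11 were higher by at least 1 (background 0.265%). The median difference of the 34 was 1.27 at 96 hpf, 1.58 at 72 hpf and 0.73 at 48 hpf, a set chosen on its 96 hpf values. These counts and medians include the 7 probe sets tested only because exposed arrays were high. The exposed arrays at 72 and 48 hpf also counted for that filter, so it favours the overlap for those 7. Of the 5 lower probe sets, 4 were below 0 at 72 hpf (background 54.3%) and 1 passed there.

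The reverse view gave a smaller overlap. In the 72 hpf pair 266 probe sets passed (2.71%), 171 higher (1.74%) and 95 lower (0.969%). Of the 171, 107 were above 0 at 96 hpf (background 45%). Of these, 80 lay over the gap (background 19.8%) and 25 of those were higher by at least 1 (background 0.347%). Their median was 1.12 at 72 hpf and 0.16 at 96 hpf. Of the 95, 71 were below 0 at 96 hpf (background 55%). Over the gap downward lay 48 (background 26%), and 1 of those was lower by at least 1 (background 0.051%). Their median was -1.02 at 72 hpf and -0.14 at 96 hpf. Both sets were chosen on their 72 hpf values, which favours larger medians there. How much of the drop at 96 hpf goes with that choice was not tested.

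Whether the 2 responses differed was tested directly, as the difference at 96 hpf minus that at 72 hpf. It passed for 0 of 9803 probe sets in limma, with 953 at an unadjusted p under 0.05. Without control 1 at 96 hpf it passed for 50, of which 3 were higher and 47 lower, and without control 2 for 1. The lowest adjusted p was 0.0745, for pfkfb3, a glycolysis regulator gene that differed by -0.38 at 96 hpf and 1.51 at 72 hpf. cyp1a differed by 4.60 at 96 hpf and 5.95 at 72 hpf (limma adjusted p of the difference 0.18). Its exposed level was close in all windows, at 12.63 at 48 hpf, 12.99 at 72 hpf and 13.26 at 96 hpf. Control levels were 6.33 at 48 hpf and, as means, 7.04 at 72 hpf and 8.66 at 96 hpf. The smaller late difference thus came with a higher control level.

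Control levels of other members were higher at 96 than at 72 hpf too. This held for 32 of the 34 probe sets (background 43.5%), with a median step of 0.79, against -0.04 over all probe sets tested. In the exposed arrays 26 of the 34 were higher at 96 than at 72 hpf (background 43.4%). The 34 were chosen for high exposed values at 96 hpf, which favours that count. They also include the 7 that were tested only because exposed arrays were high. cyp2k18 read 3.62 at 48 hpf, 7.62 at 72 hpf and 9.26 at 96 hpf in Gulfport arrays, against 3.58, 3.89 and 6.0 in controls. Both 48 hpf values and the 72 hpf control mean lay under the lower quartiles of the arrays, so a difference could not be read at 48 hpf and its size at 72 hpf is uncertain. cyp3a65 read 4.61, 7.30 and 10.43 at the same ages in Gulfport arrays, against 4.63, 5.06 and 8.62 in controls. Its 48 hpf values were also under the lower quartiles, and its difference was 2.24 at 72 hpf and 1.81 at 96 hpf. A second, dimmer cyp3a65 probe set differed by 0.12 at 48 hpf, 1.05 at 72 hpf and 1.80 at 96 hpf. The order of the 72 and 96 hpf differences was thus not the same in both probe sets.

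A few genes had large values at 96 hpf beside small ones at 72 hpf, without the difference between windows passing. The liver glycogen phosphorylase gene pygl differed by 1.07 at 96 hpf and 0.21 at 72 hpf (limma adjusted p of the difference 0.25). For me1 these values were 1.1 and 0.31 (limma adjusted p of the difference 0.28). At 48 hpf pygl differed by 0.83 and me1 by 0.02, so the pygl difference was not confined to the late window. dio1, which encodes a deiodinase of thyroid hormone, differed by 1.01 at 96 hpf and 0.16 at 72 hpf (limma adjusted p of the difference 0.37). At 72 hpf its exposed value of 5.08 and control mean of 4.92 were close to the lower quartiles of the arrays. The size of its 72 hpf difference is therefore uncertain. In the other direction gnat1 differed by -0.61 at 96 hpf and -2.08 at 72 hpf (limma adjusted p of the difference 0.15).

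**Figure D5:**
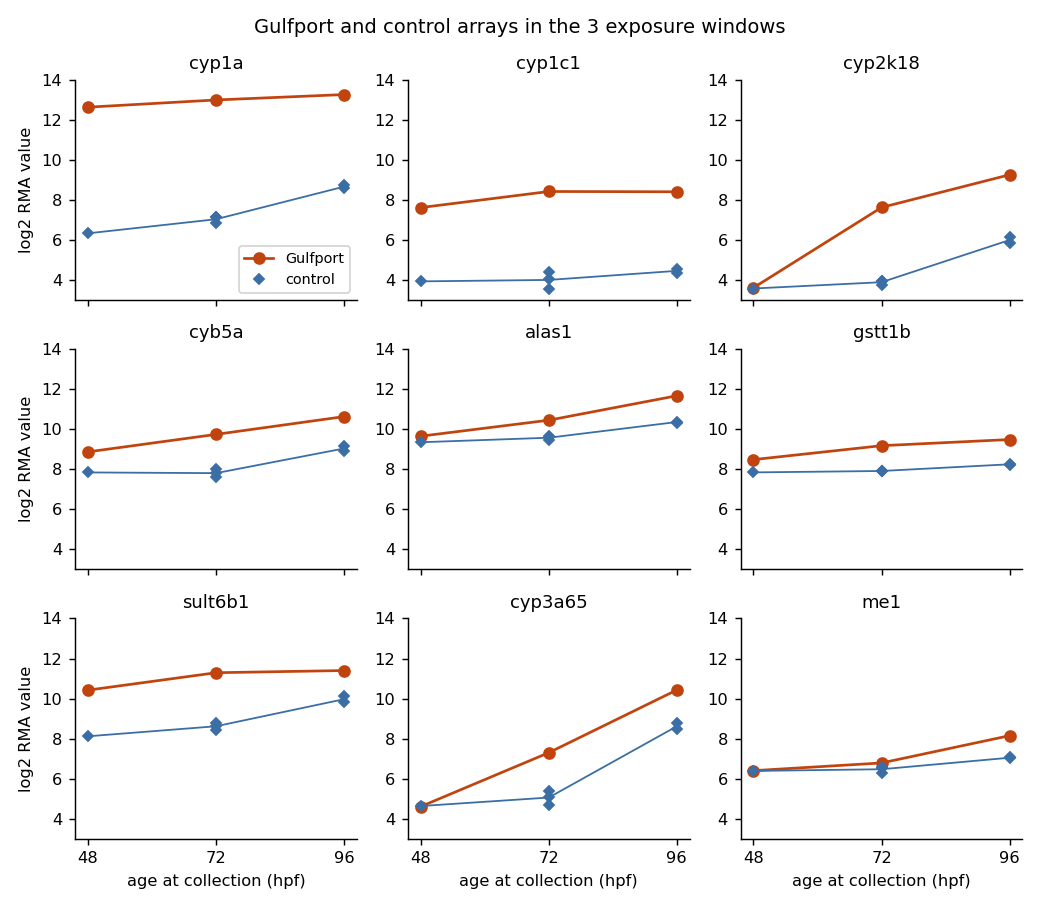
Log2 signal (y axis) of 9 named genes in Gulfport arrays and in control arrays at 48, 72 and 96 hpf (x axis), 1 point per array, with lines through the Gulfport points and the control means; cyp1c1 is shown by its dimmer probe set. The Gulfport signal of cyp1a stays between 12.63 and 13.26, while its control mean climbs to 8.66 at 96 hpf.

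Genes that change with age were, on average, close to the controls in the exposed array at 96 hpf, with a slight lean in the direction of their earlier change. Among the 340 probe sets whose control value was higher by at least 1 at 72 than at 48 hpf, the mean was 8.62 in the Gulfport array, against 8.54 and 8.62 in the controls. The median difference was 0.05, beside -0.49 in the Gulfport array at 72 hpf. Of the 340, 106 lay over the control gap upward at 96 hpf and 70 downward. Among the 164 that were lower at 72 than at 48 hpf, the mean was 6.39 in the Gulfport array, against 6.52 and 6.45 in the controls. The median difference was -0.09, beside -0.04 at 72 hpf, and 27 lay over the gap upward and 65 downward. Over all probe sets tested 19.8% lay over it upward and 26% downward. The set higher at 72 hpf was thus over the gap upward more often than all probe sets. The set lower at 72 hpf was over it downward more often. This lean was not tested. Both sets were chosen on the 72 hpf controls, which also enter the 72 hpf differences. The medians at 72 hpf are thus biased by that choice and cannot be compared with those at 96 hpf.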

How the data were processed

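Total RNA of pooled whole zebrafish was hybridised to Affymetrix zebrafish arrays. Per the submitters' processing notes, the authors used RMA, which corrects background, normalizes between arrays and combines a set's probes. The values they deposited are on the log2 scale. RMA gives all arrays nearly the same distribution, so a change in total RNA per animal would not be visible, and it compresses differences of dim probe sets. Scanner files were not used here, so no detection call was made, and the number of arrays limits the precision.

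Of 15617 probe sets, 115 AFFX controls were left out, and 9803 of the other 15502, those whose signal reached 6 in any of the 11 arrays, were tested. Groups came from the sample titles. limma 3.58.1 (lmFit, eBayes) in R 4.3.3 fitted 1 mean per group over 8 groups, with 3 residual degrees of freedom from the 72 and 96 hpf controls, which also stood for the spread of single arrays. p-values were adjusted by Benjamini-Hochberg over all probe sets tested. The fit was tried on simulated data in which the lone array was given the spread of the controls. That trial could not check whether the real exposed array varies in that way. Symbols came from the platform annotation, updated by Entrez identifier through a RefSeq table of assembly GRCz12tu: among the tested probe sets 7570 had 1 symbol, 80 several and 2153 none. The symbols crp and cell were kept from the platform annotation. In counts over genes and lists, a gene was taken by its probe set of highest mean signal, while named genes were given by the probe set of largest difference or lowest p.

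The exposure window and the gene lists were chosen with earlier results of these data known. The rule for named genes took in each direction up to 12 called genes of largest difference, filled by unadjusted p from genes that differed by at least 1 and by more than the control gap, then in each list the called members or up to 4 of largest difference over the gap, and the AHR list. Genes outside it were chosen after their values were seen: pora, gstt1a, cyp2k6, pygl, pfkfb3, fosab, npas4a, the markers and the genes at the edge of the gap. Alternatives changed the filter, scaling, moderation, gap rule and arrays. A planned search of promoters was not run, and no sequence or genome coordinate is reported here. Figures were drawn with Python 3.11.15 and matplotlib 3.10.9.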

Additional observations from a re-analysis of the deposited data

How the results depend on the processing

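The count of 9 called probe sets was 18 with no filter on low values, 15 after median centring, 26 with a variance trend and robust moderation (25 higher, 1 lower), 5 with the 96 hpf arrays alone, 15 with the exposed 72 hpf arrays as 1 group (14 higher, 1 lower) and 17 with array class (arrays split by their lower quartile) as a block (15 higher, 2 lower), an alternative chosen after seeing the data. Leaving out 1 control array gave 5 to 14. It stayed within 1.5 times of 9 with a filter at 8, quantile normalization and the other gap rules. The count over the control gap, 4492, was 6780 with no filter, 2021 with a filter at 8 (both from another number of probe sets) and 2642 at 2 times the gap. The difference between the 96 and 72 hpf responses, with 0 called, gave 2 with the variance trend, and leaving out 1 control array gave 0 to 50, the highest without control 1 at 96 hpf (3 higher, 47 lower). Apart from the fewer probe sets or arrays that some settings use, the cause was not tested. Among 270 values of the 17 named genes under alternatives 0 reversed, 229 kept their side of the threshold, 18 lost the call and 23 gained it. The other gap rules are among these alternatives. They leave the difference and adjusted p of the main fit unchanged, so no gene could gain a call or reverse under them. cyp1a, cyp1c1 and cyp2k18 kept their calls in all 16 settings, those gap rules included, with limma adjusted p up to 0.0254. No paired analysis was possible because the exposed group is 1 array with no replicate number. The exposed cup had no replicate, the lone array's spread was borrowed from controls, and values near the bottom of the scale are compressed by RMA.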

Other observations

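The called probe sets without a gene symbol had these values. The one with the larger difference read 7.54 in the Gulfport array at 96 hpf, against 5.55 and 5.53 in the controls, with a limma adjusted p of 0.00152. It differed by 1.81 at 72 hpf and -0.11 at 48 hpf. Both 48 hpf values and the 72 hpf control mean of 4.52 lay under the lower quartiles of the arrays. A difference could therefore not be read at 48 hpf, and its size at 72 hpf is uncertain. This probe set was tested only because exposed arrays reached the filter of 6. The other read 8.70 in the Gulfport array, against a control mean of 7.28, with a limma adjusted p of 0.0207, and it differed by 1.23 at 72 hpf and 1.49 at 48 hpf.

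Genes of other roles lay over the control gap without passing and were chosen after their values were seen. sqor, a mitochondrial enzyme gene of sulfide oxidation, read 8.32 in the Gulfport array, against 7.39 and 7.47 in the controls (limma adjusted p = 0.0773). The selenoprotein gene selenow2b read 10.24 in the Gulfport array, against 9.29 and 9.21 in the controls (limma adjusted p = 0.0505). The proteasome activator genes psme1 and psme2 differed by 0.72 and 0.52, beside 0.65 and 0.60 at 72 hpf. krt15, a keratin gene, read 8.42 in the Gulfport array, against 9.25 and 9.45 in the controls (limma adjusted p = 0.268).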
